A study of Mus musculus with 4 samples.

Results

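The clustered histone genes were followed in EO771 cells, a mouse mammary carcinoma cell line, cultured with an extracellular fatty acid binding protein or with buffer. A gene was a member when its platform symbol belonged to the H1f, H2ac, H2bc, H3c or H4c series and a probe set named that gene alone. This gave 29 of the 22180 genes measured: 8 of class H1, 6 of H2A, 8 of H2B, 7 of H4 and 0 of H3. Where a gene had more than 1 such probe set, the one with the highest mean over the 4 arrays stood for it, which concerned 1 member, H2ac21. Of the 29 members, 21 lie in the large histone cluster on chromosome 13 and 5 in the small cluster on chromosome 3. The other 3, H1f7, H1f8 and H1f10, carry an H1f symbol but lie on chromosomes 15 and 6, outside both clusters.

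In 2 cultures recombinant mouse A-FABP, the adipose fatty acid binding protein that Fabp4 encodes, was added at 100 ng/ml. The other 2 cultures received PBS. All 4 were EO771 cells grown for 24 hours to at least 70% confluence beforehand, and no source used here gives the length of exposure. Titles and source names mark the PBS arrays as controls, although their free-text description also names A-FABP, and the titles call the 2 arrays of a group biological replicates. The word biological is all that marks the replicates as separate cultures, so p-values measure the spread between these arrays, which may be technical, within 1 established line.

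Histones package DNA: H2A, H2B, H3 and H4 form the core of a nucleosome, and H1 binds the linker DNA between cores. Most genes for these proteins sit in clusters, are transcribed mainly in S phase under the coactivator NPAT, and give short mRNAs that end in a stem-loop bound by SLBP and carry no poly(A) tail. Variant histones encoded elsewhere are mostly made throughout the cell cycle from polyadenylated mRNAs. The labelling protocol names a kit of the 3′ type, which primes on poly(A) tails, and how completely it labelled stem-loop mRNAs was not tested. In the RefSeq table of mouse assembly GRCm38.p6, cluster members spanned 384 (H4c14) to 794 bases (H1f5), apart from H2bc21 at 2667 and H2bc22 at 14079.

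Promoter sequences are shown for 4 members taken up at length, to set the motifs of genes on either side of 0 next to each other, and for the H2A and H2B genes that share an upstream region. They come from RefSeq (GRCm38.p6) and run 5′ to 3′ up to the base before the annotated start. Capitals mark the TATA box TATAAA, the CCAAT box, the octamer ATTTGCAT and the H1 element AAACACA, searched on both strands, and no marked motifs overlap in the stretches shown. The first 4 are the 150 bases before the start of H1f5 (chr13:21780626-21780775, minus strand), H1f6 (chr13:23695661-23695810, plus strand), H2ac15 (chr13:21753913-21754062, minus strand) and H2ac21 (chr3:96219735-96219884, plus strand).
H1f5: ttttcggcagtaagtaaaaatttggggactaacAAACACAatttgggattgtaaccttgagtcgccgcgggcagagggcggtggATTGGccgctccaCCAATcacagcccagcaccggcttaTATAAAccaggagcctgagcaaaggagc
H1f6: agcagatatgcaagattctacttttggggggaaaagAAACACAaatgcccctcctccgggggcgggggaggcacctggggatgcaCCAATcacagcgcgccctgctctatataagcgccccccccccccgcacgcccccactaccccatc
H2ac15: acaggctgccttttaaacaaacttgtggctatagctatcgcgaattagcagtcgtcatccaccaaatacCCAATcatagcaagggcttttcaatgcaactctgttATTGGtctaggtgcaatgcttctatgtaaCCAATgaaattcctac
H2ac21: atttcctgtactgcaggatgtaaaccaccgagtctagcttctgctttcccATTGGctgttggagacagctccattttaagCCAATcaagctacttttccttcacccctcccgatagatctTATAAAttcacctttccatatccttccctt

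The next 3 lie between divergently transcribed neighbours, read towards the gene named first: H2ac20 and H2bc21 (chr3:96220881-96221071), H2ac12 and H2bc12 (chr13:22035644-22035820) and H2bc1 and H2ac1 (chr13:23934157-23934406, the 250 bases nearest H2bc1 of the 280 between the genes), all on the minus strand. The first and second are the whole of the 191 and 177 bases between the gene starts.
H2ac20 and H2bc21: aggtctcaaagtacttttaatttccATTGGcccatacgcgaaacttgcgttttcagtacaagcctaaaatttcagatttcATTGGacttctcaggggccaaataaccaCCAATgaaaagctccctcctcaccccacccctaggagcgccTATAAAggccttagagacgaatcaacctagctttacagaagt
H2ac12 and H2bc12: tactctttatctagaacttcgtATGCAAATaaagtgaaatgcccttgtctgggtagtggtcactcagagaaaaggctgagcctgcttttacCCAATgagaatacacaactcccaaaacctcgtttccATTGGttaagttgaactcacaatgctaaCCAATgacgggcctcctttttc
H2bc1 and H2ac1: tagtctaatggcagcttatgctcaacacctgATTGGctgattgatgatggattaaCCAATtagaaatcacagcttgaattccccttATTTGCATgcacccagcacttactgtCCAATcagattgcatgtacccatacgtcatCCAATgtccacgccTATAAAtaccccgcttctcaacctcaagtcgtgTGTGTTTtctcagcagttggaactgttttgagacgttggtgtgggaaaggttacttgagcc

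Motif content was counted in every promoter of the table. Windows of 300 bases, 250 before and 50 after the start, were found for 27 of the 29 members, the others being H2bc21 and H4c14, and 63 windows were found for all histone genes of the rule. CCAAT stood in 100% of 17 H2A, 15 H2B and 10 H3 windows, in 70% of 10 H1 windows and in 27.3% of 11 H4 windows, against 37.4% of all 32851 windows in the table. TATAAA stood in 54% of the 63 histone windows and 13.6% of all. The octamer, a binding motif of POU factors long known from H2B promoters, stood in 46.7% of H2B windows in the direction of the gene and in 35.3% of H2A windows on the opposite strand, where many H2A genes face an H2B gene. It stood in 0 H1, H3 and H4 windows and in 1.74% of all windows on either strand. The H1 element stood in 50% of H1 windows and 7.18% of all. A match is a run of letters, not a binding site.

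No histone gene passed the test across all genes. The limma adjusted p of the members ran from 0.296 to 0.992 over 41345 probe sets, 0 members were called at an adjusted p under 0.05 and 0% of all genes were. The values below are therefore descriptions. All levels and differences are on the log2 scale of the deposited values, differences are A-FABP minus PBS, ± gives the SE of the limma fit and every group has 2 arrays. Levels of different genes come from different probes and are not set against each other.

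At an unadjusted limma p under 0.05, 6 members lay higher and 4 lower with A-FABP, together 34.5% of members, where 4.81% of all genes lay higher and 8.24% lower, 13% in all. The 6 were H1f5, H2ac15, H2ac21, H2bc1, H2bc21 and H4c2, and the 4 were H1f1, H1f6, H1f7 and H1f10. Among the 26 members in the clusters, 6 lay higher and 2 lower (30.8%). In the units from 4 to 7 on the log2 scale, 16% to 18.2% of all genes had such a p. This split was 8 to 1 after median centring and 9 to 1 after cyclic loess or with the trend on mean level removed. Without A-FABP replicate 1 or without PBS control replicate 2 the lower count was 1, and without PBS control replicate 1 it was 2. Both arrays of one group lay beyond both of the other in 19 members, higher in 11 and lower in 8 (65.5% of members), where 26% of all genes lay higher, 27.5% lower and 53.5% either way. Among the members in the clusters 11 lay higher and 5 lower in that way (61.5%). A change of at least 1.5-fold with an unadjusted p under 0.05 was met by 2 members higher (H2ac15 and H2bc1) and 1 lower (H1f6), and by 0.415% and 0.645% of all genes, 1.06% in all. The median difference was -0.03 over the members and -0.01 over all genes, with 14 members above 0 (48.3%) and 15 below, where 47.6% of all genes lay above 0. In cultured cells measured in bulk, a different share of cells in S phase and a different amount of histone mRNA per cell cannot be told apart. The members were more spread out than genes in general, with a median absolute difference of 0.27 against 0.13. In each unit from 4 to 7 on the log2 scale, where most members read, it was 0.17 over all genes. The arrays of members also differed more within groups, with a median SD of 0.14 against 0.08 for A-FABP and 0.12 against 0.07 for PBS.

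**Figure D1:**
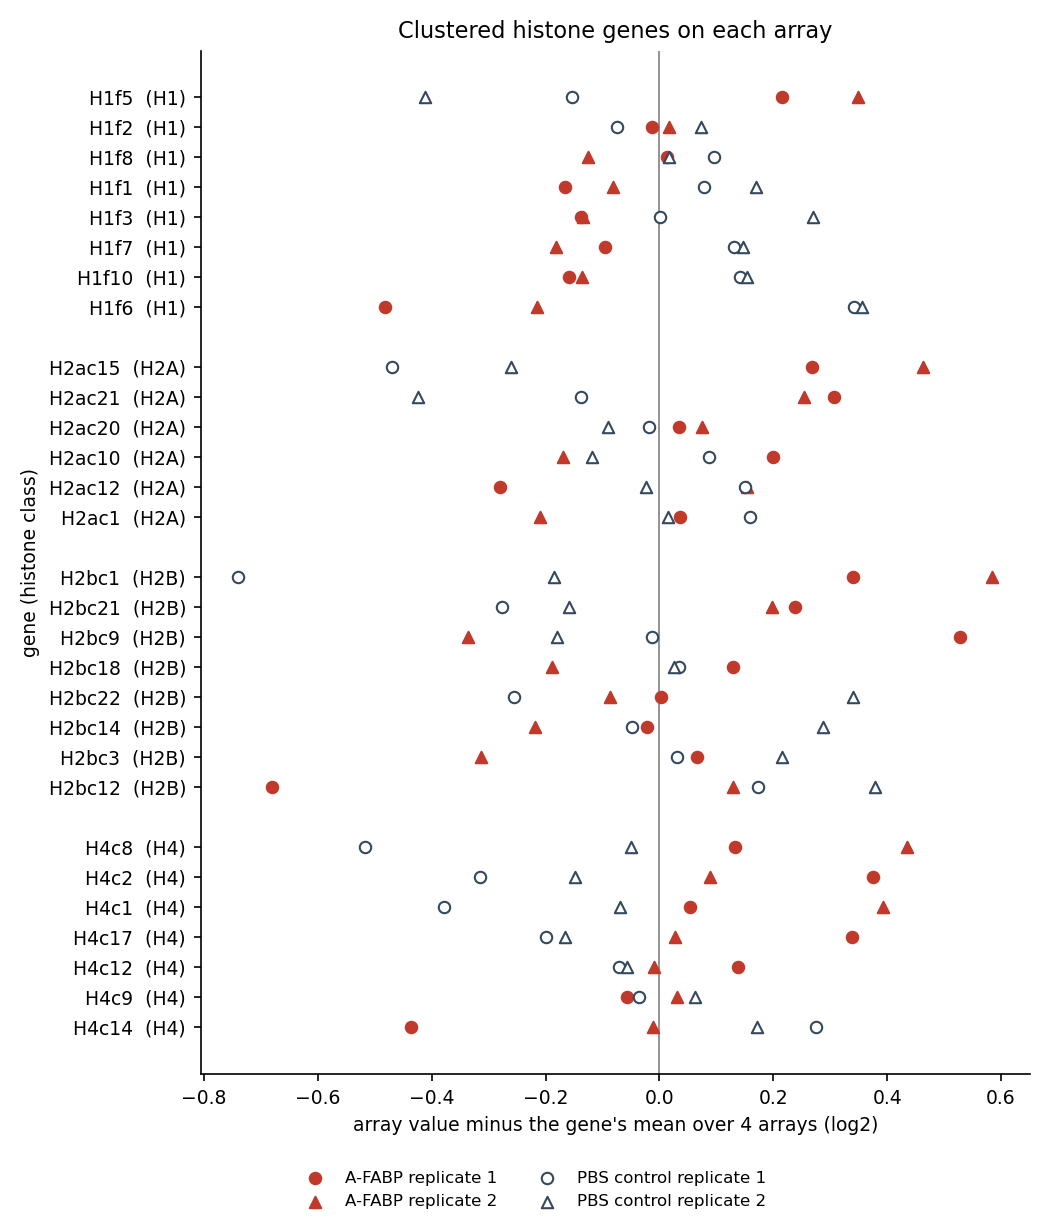
Value of each array minus the gene's mean over the 4 arrays (log2, horizontal) for the 29 histone genes (vertical, by class); filled red symbols are A-FABP arrays, open symbols PBS arrays, and shape gives the replicate. Red and open symbols are separated in 19 of the 29 genes, with red on the right in 11 and on the left in 8.

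The linker histones lay mostly lower with A-FABP, apart from H1f5, which lay higher, and H1f2, at 0.00. Of the 8 H1 genes, 6 had both A-FABP arrays below both controls, H1f8 only just, and 1 had them above. The class median was -0.26, where genes between 4 and 5, 5 to 6 and 6 to 7 on the log2 scale had medians of -0.11, -0.15 and -0.10 over all genes. Measured from the median of their own level band, the H1 genes had a median of -0.13, and 2 of 8 lay above it. The class median was -0.17 after cyclic loess, where H1f6 was the 1 member of the class lower at an unadjusted p under 0.05. Of 6 leukocyte markers, 4 lay lower with A-FABP beyond overlap and 1, Csf1r, lay higher, at 0.16 ± 0.09. Over all genes 27.5% lay lower and 26% higher in that way. The median level of the 6 markers was 5.04 to 5.28 on the A-FABP arrays and 5.54 to 5.55 on the controls. On all arrays 4 of them stood below the array median, whereas Cd68, of macrophages, read 12.70 to 12.84 and Csf1r stood above the medians. The 4 low ones, Ptprc, Itgam, Cd3e and Adgre1, had mean levels in the bands from 4 to 6. In those bands groups did not overlap in 44.6% and 51.2% of all genes. Groups overlapped in Adgre1. Cd68 lay lower beyond overlap, in a band where groups did not overlap in 52.6% of all genes. Ptprc, the pan-leukocyte marker CD45, lay at -0.45 ± 0.12 and the myeloid integrin gene Itgam at -0.34 ± 0.08. Their part in the H1 values was not tested.

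H1f5, which encodes the replication-dependent linker histone H1.5 and was formerly named Hist1h1b, read 6.98 and 7.12 with A-FABP and, on the control arrays, 6.62 and 6.36. Both A-FABP arrays stood above both controls, and the difference was 0.57 ± 0.13 (95% CI 0.20 to 0.93), a 1.48-fold change (unadjusted p = 0.0124). Its promoter, printed above, holds the H1 element, CCAAT on both strands and TATAAA, the last starting 28 bases before the gene.

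H1f6 encodes H1t, the linker histone of spermatocytes, and lies in the same cluster. It read 4.21 and 4.48 with A-FABP and 5.03 and 5.05 in the controls, so the PBS arrays were close together and both treated arrays lay well below them. The difference of -0.70 ± 0.12 (95% CI -1.04 to -0.36; unadjusted p = 0.00496) corresponds to 1.62-fold lower, at a level under the array medians of 5.95 to 6.03. H1f6 and H1f5 lay on opposite sides of 0. In both promoters the H1 element and a CCAAT box read in the direction of the gene, beginning 114 and 65 bases before the start in H1f6 and 117 and 53 in H1f5.

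Among the other somatic H1 genes, H1f1, encoding H1.1, read 3.87 and 3.96 with A-FABP against 4.12 and 4.21 with PBS, a difference of -0.25 ± 0.09. H1f3, encoding H1.3, read 5.94 and 5.94 against 6.07 and 6.34 (-0.27 ± 0.12, 95% CI -0.61 to 0.07), and the gap depended on the second control, at -0.14 without it. H1f2, which encodes H1.2, read 9.12 and 9.15 against 9.06 and 9.20, with overlapping arrays and a 95% CI of -0.26 to 0.26. H1f4 had no probe set of its own.

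The H1 genes outside the clusters also lay lower. H1f10 encodes H1x, a replication-independent linker histone, and read 6.02 and 6.04 with A-FABP against 6.32 and 6.33 with PBS (-0.30 ± 0.08, unadjusted p = 0.0189). H1f7, a spermatid linker histone gene, read 5.15 and 5.07 against 5.38 and 5.39 (-0.28 ± 0.08). H1f8, the oocyte linker histone gene, read 5.64 and 5.50 against 5.73 and 5.65, and its difference of -0.11 turned to 0.00 after cyclic loess and to 0.03 with the level trend removed. Replicates of H1f7 and H1f10 were tight, and the groups of all 3 did not overlap. Those of H1f8 were only just apart, with A-FABP replicate 1 at 5.645 and PBS control replicate 2 at 5.647. Without these 3 genes, the 5 clustered H1 genes had a median of -0.25. Beyond overlap 3 lay lower and 1 higher, where 27.5% and 26% of all genes did.

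**Figure D2:**
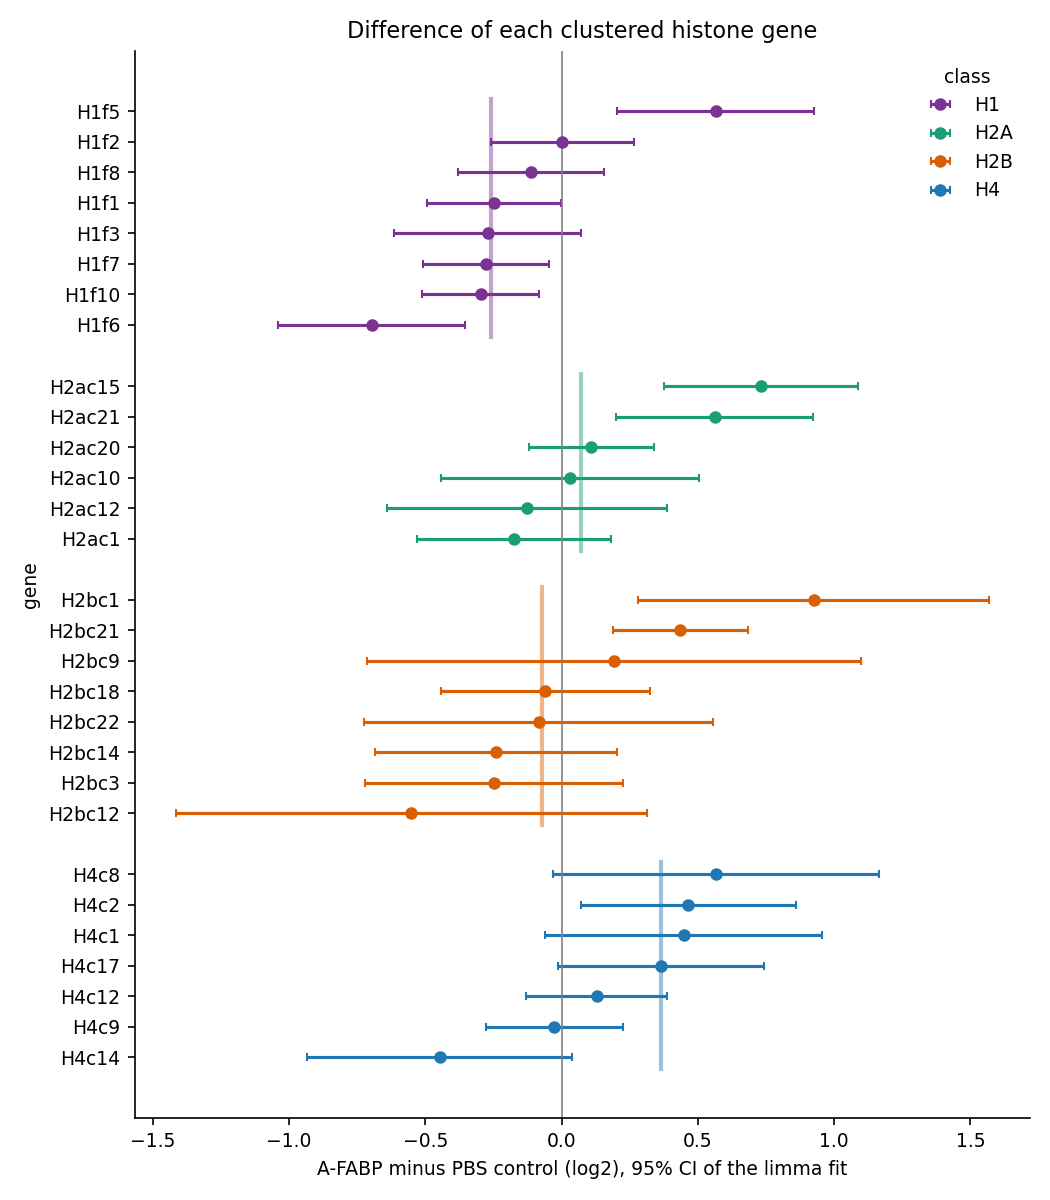
Difference of each gene (A-FABP minus PBS, log2, horizontal) with its 95% CI from the limma fit, for 29 genes in 4 classes; the pale vertical bar is the class median. Class medians lie at -0.26 for H1, 0.07 for H2A, -0.07 for H2B and 0.37 for H4, and most intervals include 0.

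In the H2A class 2 genes stood out and the rest lay near 0. The class median was 0.07 (0.00016 without PBS control replicate 2, 0.15 without A-FABP replicate 2), with 4 genes above 0 and 2 below, 3 with both A-FABP arrays above both controls and 0 below. Among all genes 26% lay above and 27.5% below in that way. H2ac15 (Hist1h2ak), below the array medians, read 4.16 and 4.36 with A-FABP against 3.42 and 3.63 with PBS. It lay 1.66-fold higher (0.73 ± 0.13, 95% CI 0.37 to 1.09; unadjusted p = 0.0049). H2ac21 (Hist2h2ab), from the small cluster, stood above the array medians, at 8.36 and 8.31 against 7.92 and 7.63. Its difference was 0.56 ± 0.13 (95% CI 0.20 to 0.92; unadjusted p = 0.0127), and the groups did not overlap. The other H2ac21 probe set read 5.00 and 5.25 against 4.83 and 4.85, a difference of 0.28 ± 0.12 in the same direction.

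H2ac20 (Hist2h2ac), which lies 58 bases from H2ac21 and ends towards it, read 8.90 and 8.94 with A-FABP against 8.84 and 8.77, a separation of 0.11 with a 95% CI of -0.12 to 0.34. H2ac10 read 10.30 and 9.93 against 10.19 and 9.98, and its spread within groups exceeded its difference of 0.03. H2ac12, far below the array medians, read 2.05 and 2.48 against 2.48 and 2.30 (-0.13 ± 0.18). H2ac1, the testis H2A gene, read 6.16 and 5.91 against 6.28 and 6.14 (-0.17 ± 0.13, and -0.051 without A-FABP replicate 2). Groups overlapped in H2ac10, H2ac12 and H2ac1.

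The H2B class held the highest difference of the 29 members, that of H2bc1, and also H2bc12 at -0.55. Its median was -0.07, with 3 of 8 genes above 0. Groups overlapped in 5 of 8, where they did not overlap in 53.5% of all genes. The class median had no settled sign, at -0.20 without PBS control replicate 1, -0.18 without A-FABP replicate 1, 0.030 without A-FABP replicate 2 and 0.023 without PBS control replicate 2. H2bc1, which encodes TH2B, the H2B of male germ cells, read 2.90 and 3.15 with A-FABP against 1.82 and 2.38 with PBS. The difference was 0.92 ± 0.23 (95% CI 0.28 to 1.57; unadjusted p = 0.0165), from readings far below the array medians, and the groups did not overlap. H2bc21 (Hist2h2be) read 7.05 and 7.01 against 6.53 and 6.65, with close replicates and groups apart. It lay 1.35-fold higher (0.44 ± 0.09, 95% CI 0.19 to 0.68; unadjusted p = 0.00836).

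H2bc12 read 3.86 and 4.67 with A-FABP against 4.72 and 4.92 (-0.55 ± 0.31). A single array made most of that gap, since the difference was -0.15 without A-FABP replicate 1 and -0.96 without A-FABP replicate 2. H2bc3 read 8.19 and 7.81 against 8.15 and 8.34 (-0.25 ± 0.17), and H2bc14 read 4.32 and 4.12 against 4.29 and 4.63 (-0.24 ± 0.16). In both, A-FABP replicate 1 fell between the controls, and the differences were -0.057 for H2bc3 without A-FABP replicate 2 and -0.072 for H2bc14 without PBS control replicate 2. H2bc9, H2bc18 and H2bc22 lay at 0.19, -0.06 and -0.08 with overlapping groups, and their 95% CI reached from -0.71 to 1.10, -0.44 to 0.32 and -0.73 to 0.56.

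The H4 genes, which encode the same protein many times over, lay mostly higher with A-FABP, at low levels. The class median was 0.37, with 5 of 7 genes above 0, all 5 with both A-FABP arrays above both controls, and 1 gene below both. Over all genes 26% lay higher and 27.5% lower in that way. Against the median of their level band, 6 of 7 lay higher, with a median of 0.40. Of the 7 genes 1, H4c2, lay higher at an unadjusted p under 0.05, where 4.81% of all genes did. Shares of all genes are given for the deposited values alone. The H4 count was 4 after cyclic loess or with the level trend removed (H4c1, H4c2, H4c8 and H4c17) and 3 after median centring. It was 0 with trend and robust settings and without A-FABP replicate 1 or PBS control replicate 1, and with the replicate block it was 2, H4c1 and H4c8 but not H4c2. The class median was 0.21 without A-FABP replicate 1. H4c8 read 4.71 and 5.01 against 4.06 and 4.53 (0.57 ± 0.21, 95% CI -0.03 to 1.17). H4c2 read 3.37 and 3.08 against 2.68 and 2.84 (0.46 ± 0.14, 95% CI 0.07 to 0.86; unadjusted p = 0.031). In H4c1 the readings were 4.94 and 5.28 against 4.51 and 4.82 (0.45 ± 0.18), and in H4c17 they were 4.53 and 4.22 against 3.99 and 4.03 (0.37 ± 0.14). All 4 stood below the array medians. Leaving out 1 array took H4c8 to 0.33 (PBS control replicate 1), H4c1 to 0.28 (A-FABP replicate 2) and H4c17 to 0.21 (A-FABP replicate 1).

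H4c12, the only H4 member above the array medians, read 11.83 and 11.68 against 11.62 and 11.63 (0.13, 95% CI -0.13 to 0.39). H4c9 read 4.46 and 4.55 against 4.48 and 4.58, with overlapping groups. H4c14 (Hist2h4), the H4 gene of the small cluster, went the other way, at 5.12 and 5.54 against 5.83 and 5.72 (-0.45 ± 0.17, 95% CI -0.93 to 0.04), and lay at -0.24 without A-FABP replicate 1. The H4 median was 0.13 over the single member left by a filter at the median level, and 0.11 when probe sets shared by several H4 genes were added.

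Shared probe sets gave smaller differences in H4 and the only readings for H3. The platform names 66 histone genes of the rule, and 37 of them appear only in probe sets that name several genes, including all 12 H3 genes. Of 38 such probe sets, 37 name histone genes alone, and 3 repeat the 4 values of another, which leaves 34 of histone genes alone. Over these 34 the median was 0.00, with 17 above 0 and 17 below. Groups did not overlap in 52.9%, where 53.5% of all genes did not. At an unadjusted p under 0.05 there were 0 higher and 4 lower, together 11.8%, where 13% of all genes lay either way. The shared probe sets are no independent set, since those of a class name the same genes. The 38 together name 15 of the 29 members. Among these is H1f10, named only in the probe set left out of the 34, which it shares with Gm5577 (-0.15 ± 0.08).

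The 12 H3 probe sets fell into 4 shared by the genes H3c1, H3c8, H3c10 and H3c11, which encode H3.1, and 8 shared by the genes that encode H3.2. Their median was -0.11, with 4 above 0 and 8 below. Most of them read between 4 and 7, where the bands had medians of -0.11, -0.15 and -0.10 over all genes. Beyond overlap 3 lay higher and 4 lower (58.3%), where 53.5% of all genes did so. Among the H3.1 probe sets the differences ran from -0.45 to 0.21, and among the H3.2 probe sets from -0.37 to 0.45. The lowest unadjusted p belonged to an H3.2 probe set at 5.20 and 5.43 with A-FABP against 5.69 and 5.68 with PBS (-0.37 ± 0.11, unadjusted p = 0.0311). Probe sets of one gene group differed among themselves by more than the class medians did.

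The H4 probe sets shared by 6 or 13 genes had a median of 0.07 over 5, between -0.30 and 0.12, and the H2A ones a median of 0.08 over 9. One H2A probe set, for H2ac18, H2ac19 and H2ac20, stood far above the array medians, at 12.36 and 12.30 against 12.35 and 12.32, where the 4 arrays lay within 0.06. In the H2B class 6 of 7 shared probe sets lay between -0.21 and 0.16. The other, for H2bc4, H2bc6 and H2bc8, read 7.20 and 6.95 with A-FABP against 7.85 and 8.13 (-0.92 ± 0.15, 95% CI -1.35 to -0.49; unadjusted p = 0.00424). A second probe set of the same 3 genes read 9.28 and 9.25 against 9.43 and 9.32, a difference of -0.11 ± 0.09. A probe set naming them together with H1f4 lay at -0.41 ± 0.11 (unadjusted p = 0.0206), at 6.86 and 6.69 against 7.12 and 7.25. In all 3 the treated arrays were under both controls, with differences from -0.92 to -0.11.

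**Figure D3:**
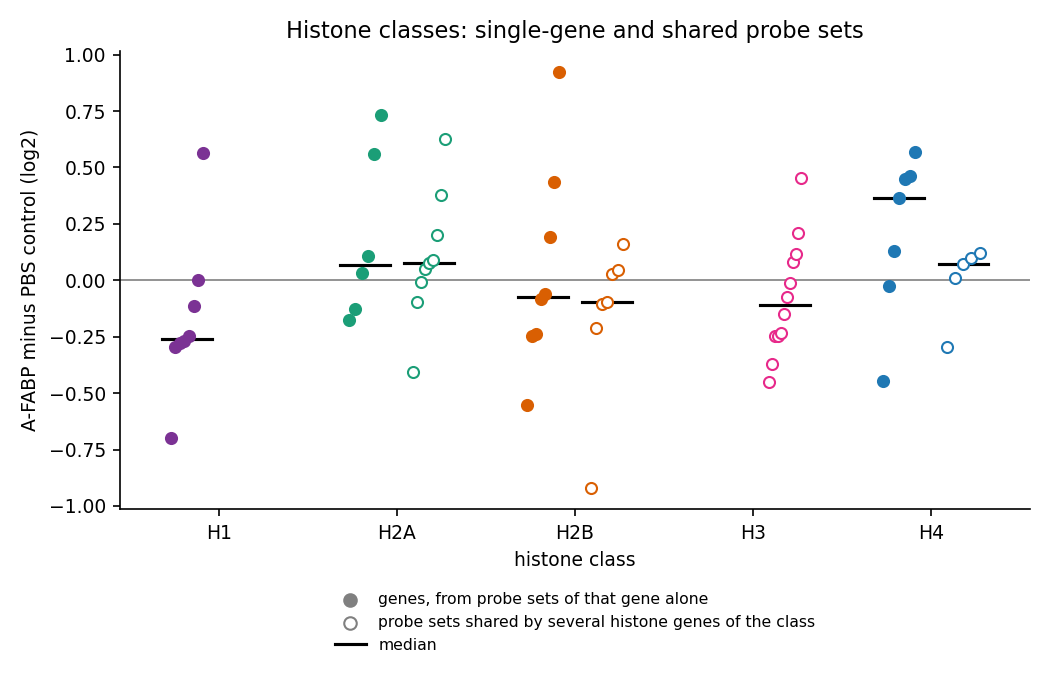
Difference (A-FABP minus PBS, log2, vertical) by histone class (horizontal); filled points are genes with their own probe set, open points are probe sets shared by several genes of the class, repeats drawn once, and black bars are medians. The H4 median lies at 0.37 over genes and at 0.07 over shared probe sets, and H3 has open points alone.

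Members that are neighbours in a cluster shared the sign of their difference in 11 of 24 pairs, and in 7 of 9 pairs whose gene bodies lie under 5 kb apart. The 7 include H2bc12 with H4c9, H4c8 with H2ac10 and H2ac12 with H2bc12. The signs of H4c9, H2ac10 and H2ac12 turned in alternatives, so the count of 7 is not settled. Of the 3 divergent H2A and H2B pairs whose intervening sequences are printed above, 1 lay higher, 1 lay lower and 1 was split. In the small cluster, H2ac20 and H2bc21 were both higher, at 0.11 and 0.44, and with H2ac21 at 0.56 formed a run of 3 higher neighbours. H2ac12 and H2bc12 were both lower, at -0.13 and -0.55. H2bc1 and H2ac1 lay apart, at 0.92 and -0.17. By cluster, the median was 0.00 over 21 members of the large cluster and 0.11 over 5 of the small one. Motif and class cannot be told apart here, since all members with the octamer were of H2A or H2B and most without CCAAT of H4. Members with the octamer in their promoter window had a median of -0.15 over 8, and those without it 0.03 over 19. For the TATA box the medians were 0.04 over 16 with it and -0.06 over 11 without, for CCAAT -0.07 over 20 and 0.13 over 7, and for the H1 element -0.17 over 7 and 0.00 over 20.

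On all 4 arrays 17 members stood below the array median, and they had a median absolute difference of 0.37, while the 10 members above it on all arrays had 0.19. The sizes overlapped, since H2ac21 and H1f5 stood above the array medians and H4c9 below them. Of the 6 members higher at an unadjusted p under 0.05, H1f5, H2ac21 and H2bc21 lay above the array medians, and of the 4 lower ones H1f10 did so.

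**Figure D4:**
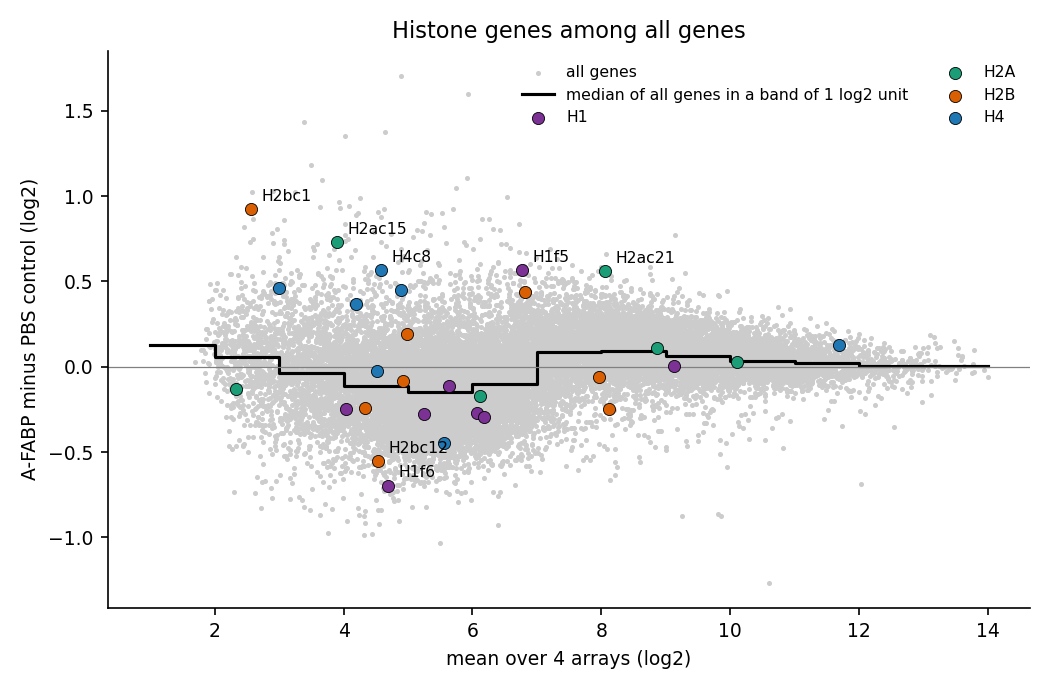
Difference (A-FABP minus PBS, log2, vertical) against the mean over 4 arrays (log2, horizontal) for all 22180 genes (grey) and the 29 histone genes (coloured by class); the black step is the median of all genes per band of 1 log2 unit. The coloured points run from -0.70 (H1f6) to 0.92 (H2bc1), and all genes together from -1.27 to 1.70.

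Genes that serve histone supply had medians near 0, and most lay slightly above it. Of 15 measured genes of histone gene transcription, 13 lay above 0 with a median of 0.08, and 0 had an unadjusted p under 0.05 in either direction. NPAT, the coactivator of histone transcription, had its gene Npat at 10.18 and 10.14 against 10.12 and 10.06 (0.07 ± 0.08). Cdc25a, a phosphatase gene that activates CDK2, lay at 0.22 ± 0.09. Among 17 genes of histone mRNA 3′ end processing, 10 lay above 0 with a median of 0.03 and 0 had an unadjusted p under 0.05. Slbp, for the stem-loop binding protein, read 9.25 and 9.24 against 9.10 and 9.05 (0.17 ± 0.08, 95% CI -0.05 to 0.39), with groups apart. The U7 snRNP gene Lsm10 lay at 0.18 ± 0.09 and its partner Lsm11 at 0.03 with overlapping groups. Below 0 lay 7 of the 17, of which Snrpb was lowest, at -0.17 ± 0.09 with groups apart.

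Histone chaperone and assembly genes had a median of 0.05 over 22, with 16 above 0. Ubn1, of the HIRA complex that deposits H3.3, read 8.63 and 8.67 against 8.40 and 8.34 (0.28 ± 0.08), and alone among them had an unadjusted p under 0.05 (0.0274). Variant histones outside the clusters had a median of 0.07 over 9. H2bfm, a variant H2B gene, lay lower at 5.16 and 4.92 against 5.42 and 5.39 (-0.37 ± 0.12, unadjusted p = 0.035), and the H2A.Z genes H2az1 and H2az2 lay at 0.19 ± 0.12 and -0.19 ± 0.11. The 36 measured genes of S phase and DNA replication lay at a median of 0.06, with 30 above 0. Tyms, for thymidylate synthase, was the 1 gene with an unadjusted p under 0.05, at 7.89 and 7.71 against 7.39 and 7.46 (0.38 ± 0.10). The median levels of the 5 lists were 8.43 to 9.45, and genes between 8 and 10 had medians of 0.09 and 0.06 over all genes. Over the lists together, 2 genes lay higher and 1 lower at an unadjusted p under 0.05. Of all genes 4.81% lay higher and 8.24% lower at that threshold. The counts over the lists were 10 and 0 after median centring and 14 and 1 with trend and robust settings in limma. Those 2 settings have no share of all genes beside them, and the shares above are those of the deposited values. The adjusted threshold was passed by 0.

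**Figure D5:**
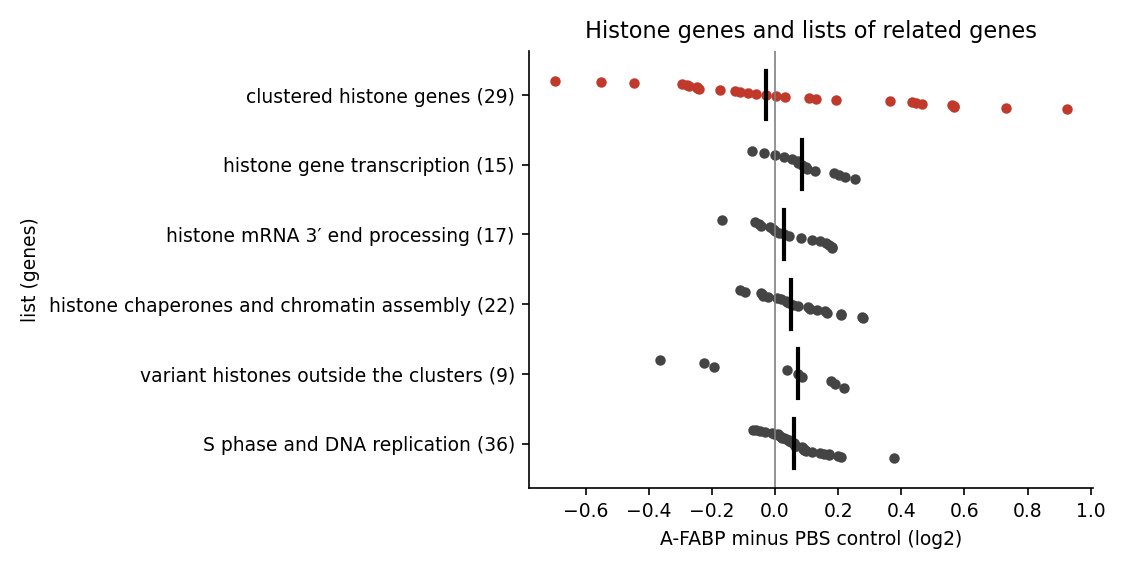
Differences (A-FABP minus PBS, log2, horizontal) of the 29 clustered histone genes (red) and of 5 lists of related genes (dark grey), with the number of genes in brackets and the median as a black bar. The histone genes run from -0.70 to 0.92, while the S phase list runs from -0.07 to 0.38. Levels differ too: the S phase list has a median of 9.45, and 17 histone genes stand below the array median on all arrays.

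Of 7 epithelial markers, the keratin gene Krt8 stood far above the array medians, at 8.74 to 8.85, while Epcam lay below them on all arrays, and the median level of the list was 6.06 to 6.12, close to the array medians. Cdh1, for E-cadherin, had the lowest p of the list, at an unadjusted 0.166. Markers of fibroblasts, endothelial cells and adipocytes had median differences of 0.02, -0.06 and 0.07 over 5 genes each, and 1, 3 and 3 of them stood below the array median on all arrays. Others stood far above it: Pdgfra at 11.16 to 11.22, Col3a1 at 9.58 to 9.72 and Fabp4 at 13.18 to 13.33. Tie1, an endothelial receptor gene, lay at -0.29 (unadjusted p = 0.0461). The lowest p of the fibroblast list was that of Thy1 (0.161), and of the adipocyte list that of Fabp4 (0.217).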

How the data were processed

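RNA of 4 EO771 cultures was hybridised to expression arrays, 2 per group, grouped by title. The deposited table holds 1 log2 value per probe set and array. The submitters' processing notes name RMA and Partek 6.6; no source used here gives the probe set definition or genome build. RMA compresses differences near the background and near saturation, and no detection calls were used. Precision is limited by the number of arrays.

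From these values, limma 3.58.1 in R 4.3.3 (lmFit, eBayes) was fitted over all 41345 probe sets, without a filter and two-sided, with Benjamini-Hochberg adjustment. Calls required an adjusted p under 0.05. The fit had 2 residual and 1.91 prior degrees of freedom and was tested on simulated data. The smallest two-sided p of an exact permutation test is 0.333 in this design. The platform annotation named 1 gene for 23521 probe sets and several for 1814; symbols absent from it were matched through unique RefSeq synonyms. Members and lists were chosen with earlier results of these data known, so no p is given for a class or list. Named with values were all H1 genes and, per other class, the 5 lowest p and both extremes. Per list they were up to 4 genes with an unadjusted p under 0.05, or else the lowest p. The other members and Npat, Lsm10, Lsm11, Snrpb, H2az1, H2az2, Epcam, Krt8, Csf1r, Cd68, Pdgfra and Col3a1 were added after their values were seen. Alternatives were another scaling, filter, moderation and probe choice, a replicate block, and each array left out.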

Additional observations from a re-analysis of the deposited data

How the results depend on the processing

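In the alternatives refitted, which are all 15 but the stricter unadjusted threshold, 0 members passed the adjusted threshold, and 21 of 29 kept their sign in every alternative that gave a value. With 2 arrays a group, precision was limited by their number, and most of the members whose sign turned had differences smaller than their SE. Signal over background was not measured here.

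Members lower at an unadjusted p under 0.05 numbered 4 as deposited, 1 after median centring, cyclic loess or trend removal, 2 with trend and robust settings, 7 with shared probe sets added, 1 at an unadjusted p under 0.01, and 1 to 3 with an array left out. Members higher numbered 6 as deposited, 2 at an unadjusted p under 0.01, and 4 to 6 with an array left out. With the filter at the median level, which left 12 members, 3 were higher and 1 lower. The H1 median of -0.26 moved to -0.19 after median centring, -0.17 after cyclic loess, -0.13 with the trend removed, -0.13 under the filter and between -0.29 and -0.18 with an array left out. The H4 median of 0.37 moved to 0.13 under the filter and 0.11 with shared probe sets, and lay between 0.21 and 0.38 with an array left out. The H2A median of 0.07 lay between 0.00016 and 0.15, and the H2B median of -0.07 between -0.20 and 0.030, in the same way. With an array left out the median of all members lay between -0.13 and 0.022. In the supply and replication lists, genes higher numbered 2 as deposited, 10 after median centring or under the filter, 14 with trend and robust settings, 1 after cyclic loess, repeated quantile normalization or trend removal, and 0 to 1 with an array left out. Genes lower numbered 1 as deposited, 0 under the filter and under each scaling alternative, and 0 to 1 with an array left out. The cause was not tested, beyond the fewer genes under the filter. Shares of all genes at an unadjusted p under 0.05 are given for the deposited values alone, so none stands beside the counts of the alternatives.

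With a replicate block, 7 members were higher and 2 lower, and 1 supply gene was higher; the numbers were not shown to pair the cultures (correlation of deviations -0.01).

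Signs turned for H1f2 (-0.061 after cyclic loess, -0.064 after repeated quantile normalization, -0.061 with the trend removed; -0.071 to 0.077 with an array left out), H1f8 (0.0040 after cyclic loess, 0.034 with the trend removed) and H2ac10 (-0.020 after cyclic loess, -0.0085 after repeated quantile normalization, -0.0045 with the trend removed; -0.15 to 0.22 with an array left out). They also turned for H2bc22 (0.026 after cyclic loess, 0.029 with the trend removed; -0.38 to 0.21 with an array left out), H2bc18 (0.0054 after median centring; -0.22 to 0.10) and H4c9 (0.038 after median centring, 0.059 after cyclic loess, 0.0031 after repeated quantile normalization, 0.086 with the trend removed; -0.077 to 0.022). With an array left out, H2ac12 ran from -0.34 to 0.089 and H2bc9 from -0.24 to 0.63.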
